A study of Mus musculus with 9 samples.

Results

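The genes described here are 10 genes of the circadian clock, Per1, Per2, Per3, Dbp, Tef, Nr1d1, Nr1d2, Ciart, Arntl and Clock, in the dissected midbrain of adult mice. They were chosen by symbol from the 47729 gene identifiers of the count files, and all 10 passed the filter on low counts that left 17671 genes for testing. The clock is a feedback loop of transcription. The proteins CLOCK and ARNTL (BMAL1) bind as a pair to E-box sequences and switch on the Per, Nr1d, Dbp and Ciart genes, the period proteins return to the nucleus and block this pair, and the Nr1d nuclear receptors repress Arntl. In tissues of nocturnal mice outside the suprachiasmatic nucleus, the master clock of the hypothalamus, the Nr1d, Dbp, Tef, Ciart and Per transcripts peak between day and dusk while Arntl and Clock peak between night and dawn, so that the levels of these genes move with the hour at which tissue is taken. Per1 and Per2 are also induced by neuronal activity and by glucocorticoids.

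All mice were C57/Bl6, carried Pitx3-Cre/+ and a Rosa-lox-stop-lox-Yfp reporter, and were 180 days old, and the genotypes compared were Dot1l(+/+), Dot1l(fl/+) and Dot1l(fl/fl). Dot1l is the methyltransferase of histone H3 lysine 79, its exon 5 is flanked by loxP sites, and Cre is made from the Pitx3 locus, so that only dopamine neurons should lose the exon while the other cells of the dissected area keep it. Each genotype had 3 libraries, and each library pooled RNA from 3 samples of snap-frozen tissue, so that the p-values below measure the spread between pools. The design text of the series speaks of sorted cells at E15.75, whereas every library label gives dissected midbrain at P180. The hour of dissection and the light cycle are given neither in the labels nor in the methods, and no library of known hour is among these 9. In such bulk tissue, fewer cells of a type and less RNA per cell cannot be told apart.

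Library totals ran from 16422135 counts in Dot1l(fl/fl) replicate 3 to 28403218 in Dot1l(fl/+) replicate 2. The levels below are CPM, counts per 1000000 counts of the library total after trimmed-mean (TMM) scaling. Dot1l itself measured 85.2, 80.2 and 85.1 CPM in the Dot1l(+/+) pools, 84.2, 60.6 and 75.6 in those of Dot1l(fl/+) and 82.1, 73.9 and 82.9 in those of Dot1l(fl/fl). It averaged 83.5 CPM ± 2.85 (SD, n = 3 pools) in Dot1l(+/+) pools, 73.5 ± 11.96 in those of Dot1l(fl/+) and 79.6 ± 4.95 in those of Dot1l(fl/fl), and in no comparison did it pass the edgeR test (adjusted p from 0.62 to 0.999). The count of the gene holds the exons outside exon 5 and cells without Cre, and it does not measure the loss of exon 5. The dopamine neuron markers were present in every library. Th, the rate-limiting enzyme of dopamine synthesis, was at 75.2 CPM ± 10.3 (SD, n = 3) in Dot1l(+/+) and 46.1 ± 2.26 in Dot1l(fl/fl).

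The DNA elements through which the loop works can be read in the start regions of several of these genes. From RefSeq (GRCm38.p6), 14 windows of 250 bases before to 50 after a transcription start were matched to 9 of the 10 genes (not Per2). The letters searched on both strands were CACGTG (the E-box of CLOCK and ARNTL), TTATGTAA or TTATGCAA (the D-box bound by DBP and TEF), TAGGTCA or TGGGTCA (the core of the element shared by NR1D and ROR receptors), and TGACGTCA (the cAMP element). The 4 windows below are shown because together they hold each of the first 3 kinds of element, with the matches in capitals and each sequence on the strand of its gene, Per1 at chr11:69098699-69098998 (plus strand), Per3 at chr4:151044616-151044915 (minus), Ciart at chr3:95882179-95882478 (minus) and Arntl at chr7:113207261-113207560 (plus).
Per1: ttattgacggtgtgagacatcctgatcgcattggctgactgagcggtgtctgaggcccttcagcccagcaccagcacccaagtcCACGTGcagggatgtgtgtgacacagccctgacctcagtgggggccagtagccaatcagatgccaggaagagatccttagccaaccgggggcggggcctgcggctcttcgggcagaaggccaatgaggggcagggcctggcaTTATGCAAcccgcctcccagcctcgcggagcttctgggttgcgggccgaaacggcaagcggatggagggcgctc
Per3: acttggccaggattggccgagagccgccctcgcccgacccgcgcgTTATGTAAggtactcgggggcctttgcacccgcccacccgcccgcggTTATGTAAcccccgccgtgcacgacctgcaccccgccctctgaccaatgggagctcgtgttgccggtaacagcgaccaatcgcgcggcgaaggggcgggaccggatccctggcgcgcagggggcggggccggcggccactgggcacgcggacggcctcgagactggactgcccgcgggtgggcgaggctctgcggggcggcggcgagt
Ciart: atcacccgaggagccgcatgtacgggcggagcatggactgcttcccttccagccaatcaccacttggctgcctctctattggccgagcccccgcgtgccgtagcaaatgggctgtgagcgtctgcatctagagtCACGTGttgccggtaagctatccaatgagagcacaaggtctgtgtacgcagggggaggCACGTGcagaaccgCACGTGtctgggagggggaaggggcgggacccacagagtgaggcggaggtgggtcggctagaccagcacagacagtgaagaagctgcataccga
Arntl: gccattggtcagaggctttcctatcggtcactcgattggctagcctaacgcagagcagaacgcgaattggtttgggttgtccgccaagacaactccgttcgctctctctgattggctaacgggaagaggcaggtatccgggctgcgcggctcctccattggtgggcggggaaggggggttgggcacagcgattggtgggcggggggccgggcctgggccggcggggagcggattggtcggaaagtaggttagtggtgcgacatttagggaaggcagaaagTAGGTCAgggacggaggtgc

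The Per1 window held an E-box starting 166 bases before the transcription start and a D-box 24 bases before it. Ciart held 3 E-boxes, at 116, 58 and 44 bases before the start, and Per3 held 2 D-boxes, at 205 and 158 bases before it. The second of the Arntl windows held the NR1D/ROR core 30 bases after the start, and both Tef windows held an E-box, at 127 and 138 bases before their starts. The windows of Dbp, Nr1d1, Nr1d2 and Clock held none of these letters, and the cAMP element was in none of the 14 windows. Among all 32851 RefSeq promoter windows of this length, 7.15% held the E-box, 1.66% the D-box, 6.45% the NR1D/ROR core and 1.79% the cAMP element. A match describes the letters of the window and is not a measured binding site.

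All 10 genes were transcribed in every library. Per kilobase of exon, the Dot1l(+/+) level was highest in Tef, at 43.1 CPM per kilobase ± 2.02 (SD, n = 3), followed by Nr1d2 at 27.9 ± 0.898 and Nr1d1 at 19.7 ± 0.834. Dbp, at 11.7 ± 0.465, and Clock, at 11.0 ± 0.594, came next, then Per1 at 8.92 ± 0.894. Per3 stood at 5.42 ± 0.311, Per2 at 5.01 ± 0.155, Arntl at 4.37 ± 0.176 and Ciart at 2.40 ± 0.0751. Over all 9 libraries the ranges of Dbp and Clock, of Clock and Per1, of Per3 and Per2, and of Per2 and Arntl overlapped, while those of the other neighbours in this order did not. The D-box factor Tef thus exceeded its relative Dbp per kilobase in every library, and the receptor gene Nr1d2 exceeded Nr1d1. The ranges of the 3 genotypes overlapped at each gene on this scale except for Ciart between Dot1l(fl/fl) and Dot1l(+/+).

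**Figure D1:**
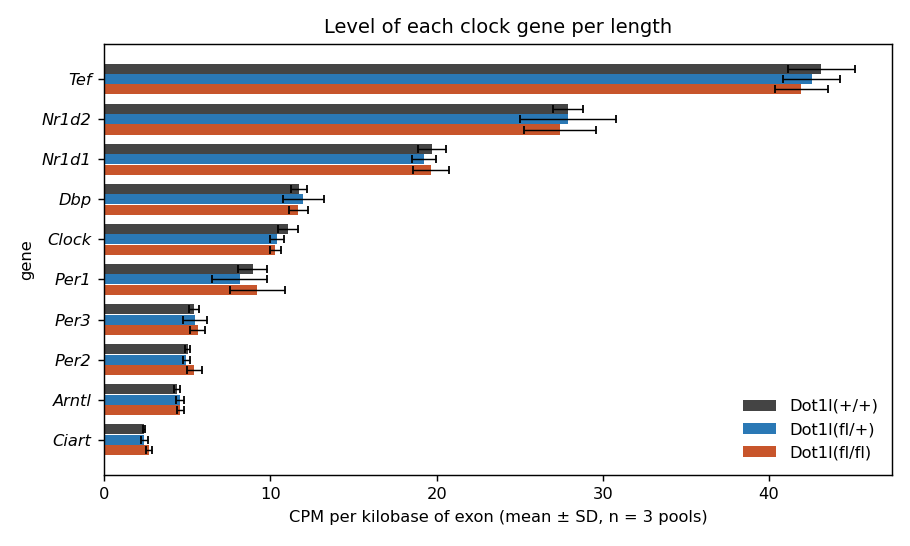
Level of each clock gene in CPM per kilobase of exon (horizontal axis, from 0), with 1 bar per genotype, mean ± SD of 3 pools. Tef, at 43.1 in Dot1l(+/+), is the highest and Ciart, at 2.40, the lowest, and the bars of the 3 genotypes lie close together within each gene.

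The first question was whether these genes differed between genotypes. With edgeR's quasi-likelihood test on all 9 libraries, 0 of the 10 passed an adjusted p of 0.05 in any comparison, against 0% of all genes tested. DESeq2 on the same libraries also gave 0 of 10, and the share of all genes that it passed is not given here. The authors' own DESeq2 test reported genes past this threshold in adult Dot1l(fl/+) mice. In the edgeR test, the count at an unadjusted p of 0.05 was also 0 of 10 in each comparison. Of all genes, 8.39% passed between Dot1l(fl/+) and Dot1l(+/+), 3.93% between Dot1l(fl/fl) and Dot1l(+/+), and 6.48% between Dot1l(fl/fl) and Dot1l(fl/+). All 10 genes lay within 0.2 of 0 on the log2 fold change scale in the 3 comparisons, as did 78.8%, 81.7% and 79.9% of all genes. Their median log2 fold changes were -0.010, 0.024 and 0.021, beside -0.0034, 0.00090 and 0.0015 over all genes tested. The 3 libraries of one genotype lay apart from those of the other in 0, 1 and 0 of the 10 genes, against 13.3%, 10.3% and 11.1% of all genes. The 3 comparisons share libraries and are not independent of each other.

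**Figure D2:**
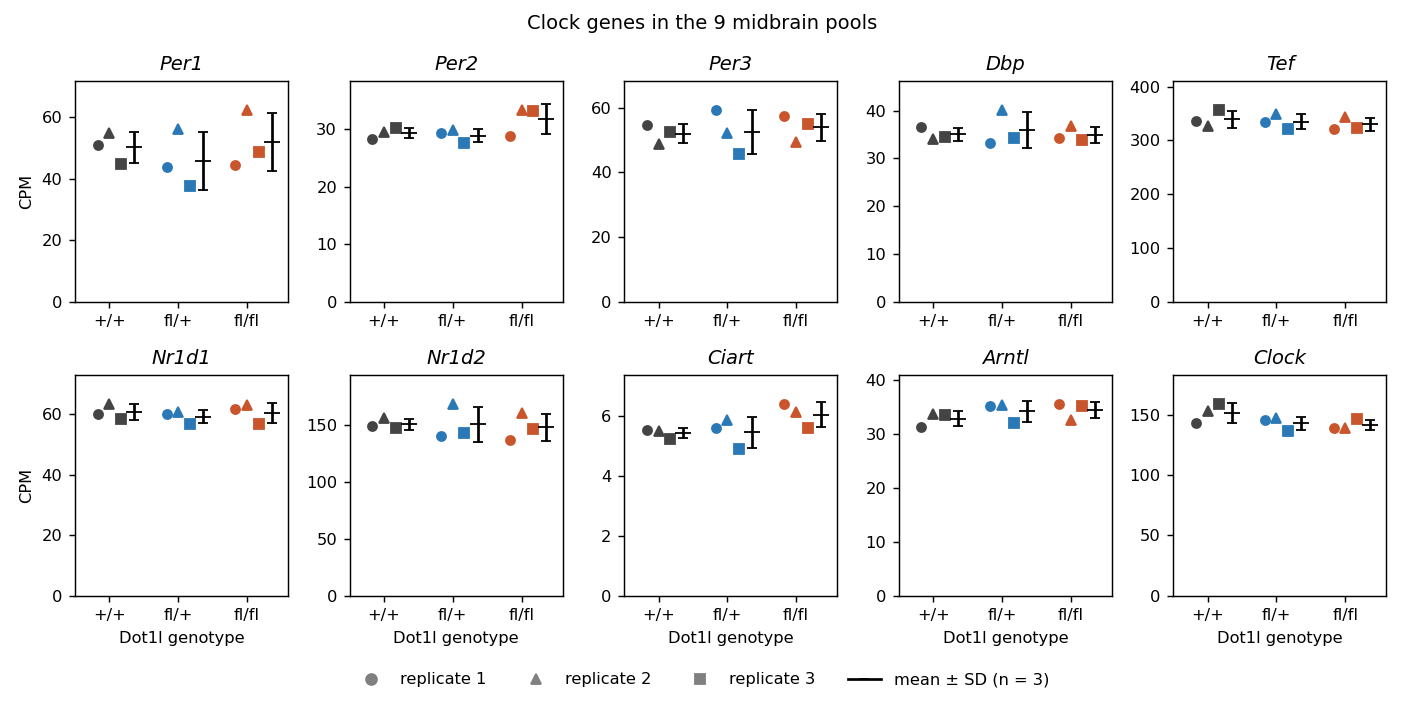
CPM of each clock gene (vertical axes, from 0) in the 9 pools by Dot1l genotype, with 1 symbol per replicate number and the mean ± SD of 3 pools beside them. The genotypes overlap in every gene except Ciart, whose 3 Dot1l(fl/fl) pools, from 5.58 to 6.40 CPM, lie above the Dot1l(+/+) pools, and Per1 has the widest scatter.

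The period genes encode the repressors of the loop. Per1 (ENSMUSG00000020893, chr11:69095217-69109960, GRCm38) was at 51.0, 54.8 and 44.9 CPM in replicates 1, 2 and 3 of Dot1l(+/+), at 43.9, 56.1 and 37.5 in those of Dot1l(fl/+) and at 44.4, 62.4 and 48.8 in those of Dot1l(fl/fl). Replicate 2 was the highest library in each genotype, and the genotypes overlapped. The log2 fold change was -0.13 (SE 0.14, edgeR adjusted p 0.836) between Dot1l(fl/+) and Dot1l(+/+), 0.049 (SE 0.14, edgeR adjusted p 0.999) between Dot1l(fl/fl) and Dot1l(+/+), and 0.18 (SE 0.14, edgeR adjusted p 0.842) between Dot1l(fl/fl) and Dot1l(fl/+). These intervals were the widest of the 10 genes, and the last ran from -0.13 to 0.48. Without Dot1l(fl/+) replicate 2, the Dot1l(fl/+) to Dot1l(+/+) value became -0.30 (edgeR unadjusted p 0.0308, adjusted p 0.45) and the last became 0.35 (edgeR unadjusted p 0.0144, adjusted p 0.364). Other single libraries moved both toward 0, the first to -0.0045 without Dot1l(fl/+) replicate 3 and the last to 0.019 without Dot1l(fl/fl) replicate 2. With the replicate number as a block, the value between Dot1l(fl/fl) and Dot1l(fl/+) was 0.18 (edgeR unadjusted p 0.0445, adjusted p 0.699). With no filter on low counts it was 0.17 (edgeR unadjusted p 0.0222, adjusted p 0.616).

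Per2 (ENSMUSG00000055866, chr1:91415982-91459324) measured 28.4, 29.5 and 30.2 CPM in the Dot1l(+/+) pools, 29.3, 29.8 and 27.5 in those of Dot1l(fl/+) and 28.8, 33.4 and 33.2 in those of Dot1l(fl/fl). Dot1l(fl/fl) replicates 2 and 3 were the highest of the 9 libraries, and replicate 1 lay among those of the other genotypes. The log2 fold change between Dot1l(fl/fl) and Dot1l(fl/+) was 0.14 (SE 0.074, edgeR unadjusted p 0.0903, adjusted p 0.778), and between Dot1l(fl/fl) and Dot1l(+/+) it was 0.11 (SE 0.075, edgeR adjusted p 0.999). Without Dot1l(fl/fl) replicate 1 these became 0.20 (edgeR unadjusted p 0.0203, adjusted p 0.885) and 0.18 (edgeR unadjusted p 0.0323, adjusted p 0.9997). Between Dot1l(fl/+) and Dot1l(+/+) it was -0.023.

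Per3 (ENSMUSG00000028957, chr4:151003652-151044665) measured 54.9, 48.9 and 52.4 CPM in the Dot1l(+/+) pools, 59.4, 52.3 and 45.7 in those of Dot1l(fl/+) and 57.5, 49.4 and 55.0 in those of Dot1l(fl/fl). Here replicate 1 was the highest library of each genotype, so that Per3 did not follow Per1 from library to library. The log2 fold changes in the 3 comparisons were 0.012, 0.052 and 0.040, each smaller than its SE of 0.090.

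Dbp and Tef encode PAR bZIP factors, the outputs of the loop that bind the D-box. Dbp (ENSMUSG00000059824, chr7:45705088-45710203) measured 36.7, 34.1 and 34.5 CPM in the Dot1l(+/+) pools, 33.2, 40.2 and 34.3 in those of Dot1l(fl/+) and 34.2, 36.9 and 33.8 in those of Dot1l(fl/fl). Only Dot1l(fl/+) replicate 2 stood over 37 CPM, and the highest library was 1.21 times the lowest. The log2 fold changes were 0.035 (SE 0.079), -0.0027 (SE 0.079) and -0.037 (SE 0.079), and the 95% interval between Dot1l(fl/fl) and Dot1l(+/+) ran from -0.17 to 0.17. In many tissues Dbp has one of the widest daily swings of the clock genes. A stretch of 539 exon bases of Dbp overlaps Sphk2 on the opposite strand, and as the strand setting of the counting is not stated, reads of the 2 genes there may not be separated.

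Tef (ENSMUSG00000022389, chr15:81802421-81826863) was the steadiest of the 10 genes. It measured 335.5, 325.9 and 356.9 CPM in the Dot1l(+/+) pools, 334.7, 348.3 and 321.2 in those of Dot1l(fl/+) and 321.7, 344.4 and 323.6 in those of Dot1l(fl/fl). The genotypes overlapped and the highest library was 1.11 times the lowest. The log2 fold changes were -0.020, -0.041 and -0.021, with SEs of 0.055. An overlap of 193 exon bases with Gm17597 on the other strand was present.

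Nr1d1 and Nr1d2 encode REV-ERB alpha and beta, the receptors that repress Arntl. Nr1d1 (ENSMUSG00000020889, chr11:98767932-98775333) measured 60.2, 63.4 and 58.3 CPM in the Dot1l(+/+) pools, 60.1, 60.7 and 56.6 in those of Dot1l(fl/+) and 61.7, 63.0 and 56.7 in those of Dot1l(fl/fl). The libraries differed by at most 1.12 times, with replicate 2 highest and replicate 3 lowest in each genotype. The log2 fold changes were -0.035, -0.0023 and 0.033, with SEs of 0.060. Nr1d1 shares 263 exon bases with Thra, the thyroid hormone receptor gene on the opposite strand, so that part of its count may belong to Thra.

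Nr1d2 (ENSMUSG00000021775, chr14:18204054-18239127) measured 149.0, 156.4 and 147.3 CPM in the Dot1l(+/+) pools, 140.7, 168.8 and 142.9 in those of Dot1l(fl/+) and 137.3, 160.7 and 146.8 in those of Dot1l(fl/fl). Replicate 2 was again the highest of each genotype. The genotype means, 150.9 ± 4.86, 150.8 ± 15.6 and 148.3 ± 11.8 CPM (SD, n = 3), were closer to each other than the replicates within Dot1l(fl/+) or Dot1l(fl/fl) were, and the log2 fold changes were -0.00070, -0.025 and -0.025 with SEs of 0.073 to 0.074.

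Ciart (Chrono), which represses the CLOCK and ARNTL pair, was the lowest of the 10 genes, with 92 to 166 counts per library (ENSMUSG00000038550, chr3:95878503-95882251). It measured 5.53, 5.50 and 5.22 CPM in the Dot1l(+/+) pools, 5.60, 5.86 and 4.88 in those of Dot1l(fl/+) and 6.40, 6.13 and 5.58 in those of Dot1l(fl/fl). Every Dot1l(fl/fl) library was above every Dot1l(+/+) library, and the Dot1l(fl/+) pools overlapped with both. A share of 5.03% of all genes lay apart in this direction in that comparison. The log2 fold change was 0.16 (SE 0.12, 95% interval from -0.098 to 0.42, edgeR unadjusted p 0.202, adjusted p 0.999). The coefficient of variation of Ciart over the 9 libraries was 8.05%, beside 8.56% for counting error at its mean count, so that its spread over libraries was no larger than counting gives.

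Arntl and Clock encode the activators. Arntl (ENSMUSG00000055116, chr7:113207465-113314126) measured 31.4, 33.8 and 33.5 CPM in the Dot1l(+/+) pools, 35.2, 35.5 and 32.0 in those of Dot1l(fl/+) and 35.6, 32.7 and 35.1 in those of Dot1l(fl/fl). The genotypes overlapped, and the highest library was 1.14 times the lowest, in the gene that is commonly the most rhythmic of the activators. The log2 fold changes were 0.058 (SE 0.069), 0.066 (SE 0.069) and 0.0090 (SE 0.069).

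Clock (ENSMUSG00000029238, chr5:76209868-76304792) measured 142.8, 153.0 and 158.9 CPM in the Dot1l(+/+) pools, 145.3, 146.8 and 136.5 in those of Dot1l(fl/+) and 138.8, 138.8 and 146.5 in those of Dot1l(fl/fl). Dot1l(+/+) replicates 2 and 3 were the highest of the 9 libraries, and replicate 1 lay within the range of the other genotypes. The log2 fold change was -0.086 (SE 0.053, edgeR unadjusted p 0.132, adjusted p 0.695) between Dot1l(fl/+) and Dot1l(+/+) and -0.10 (SE 0.054, edgeR unadjusted p 0.0807, adjusted p 0.999) between Dot1l(fl/fl) and Dot1l(+/+), the lowest unadjusted p of the 10 genes in the 3 comparisons. Without Dot1l(+/+) replicate 1 these were -0.13 (edgeR unadjusted p 0.0482, adjusted p 0.694) and -0.14 (edgeR unadjusted p 0.0301, adjusted p 0.9998), and without Dot1l(+/+) replicate 3 they were -0.048 and -0.066. Arntl and Clock therefore had opposite signs in both comparisons with Dot1l(+/+), with no call in either gene.

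**Figure D3:**
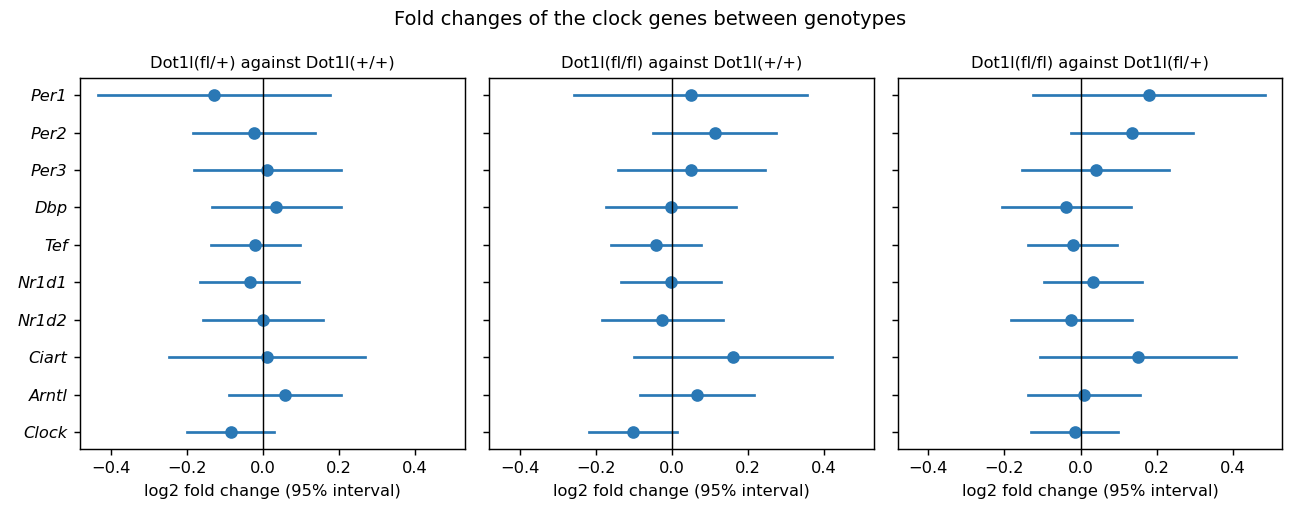
Log2 fold change of each clock gene (horizontal axis) in the 3 genotype comparisons, with points for the edgeR estimate and lines for its 95% interval. All 30 intervals cross 0, and those of Per1 are the widest, with the interval between Dot1l(fl/fl) and Dot1l(fl/+) running from -0.13 to 0.48.

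The clock genes were then set beside all genes for their spread over the 9 libraries, whatever the genotype. The coefficient of variation had a median of 6.48% over the 10 genes and of 8.94% over all genes tested, and 9 of the 10 lay under the latter. The highest library was less than 1.2 times the lowest in 4 of the 10 genes (Tef, Nr1d1, Arntl and Clock) and in 26.2% of all genes, and less than 1.5 times in 9 of the 10 and in 66.2% of all genes. The exception was Per1, with a coefficient of variation of 15.4% and a highest library 1.66 times the lowest, and 71.6% of all genes varied less. Counting error accounts for 2.90% in Per1, 1.11% in Tef and 3.49% in Arntl. It is larger in genes of low count, and the genes tested were not matched to the clock genes for level.

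As the day-to-dusk and the night-to-dawn genes move in opposite directions over the day, the difference between their mean log2 CPM (8 genes minus 2 genes) describes how the 2 phase groups stand to each other in each library. It was -0.38, -0.49 and -0.54 in the Dot1l(+/+) pools, -0.51, -0.41 and -0.52 in those of Dot1l(fl/+) and -0.47, -0.30 and -0.49 in those of Dot1l(fl/fl). The genotype means were -0.47 ± 0.082, -0.48 ± 0.057 and -0.42 ± 0.11 (SD, n = 3), and the ranges of the 3 genotypes overlapped. Over all 9 libraries the difference spanned 0.25 on the log2 scale. Dot1l(fl/fl) replicate 2 was highest, where Per1, Per2 and Nr1d2 were high and Clock low, and Dot1l(+/+) replicate 3 was lowest, where Clock had its highest level. The 8 day-to-dusk genes and the 2 night-to-dawn genes were both lowest in Dot1l(fl/+) replicate 3, at a mean log2 CPM of 5.53 and 6.05. That library held the lowest level of 7 of the 10 genes, and it was also extreme in some marker genes of other cells and regions. Its 4 choroid plexus markers summed to 550 CPM, beside at most 159 in any other library, and its oligodendrocyte sum was the highest at 11507 CPM. Its astrocyte sum was the lowest at 1278, close to the 1299 of Dot1l(fl/+) replicate 1. Its hypothalamic sum was 58.0, below the 125 of Dot1l(fl/+) replicate 1. Their part in the low clock gene levels was not tested. Without this library, the median log2 fold change of the 10 genes went from -0.010 to 0.023 between Dot1l(fl/+) and Dot1l(+/+) and from 0.021 to -0.042 between Dot1l(fl/fl) and Dot1l(fl/+), with 0 of the 10 genes at an unadjusted p of 0.05 in either. No p is given for this difference, which is a score over chosen genes. The hour of dissection was not tested with it, since no library of known hour was present.

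**Figure D4:**
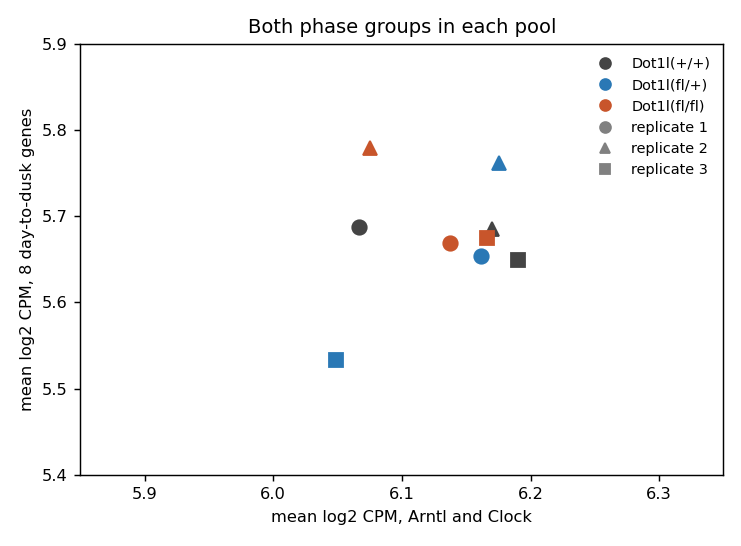
Mean log2 CPM of the 8 day-to-dusk genes (vertical axis) against that of Arntl and Clock (horizontal axis), with 1 point per library, colours for genotypes and shapes for replicate numbers; neither axis starts at 0. The 3 genotypes are mixed, and Dot1l(fl/+) replicate 3 is the lowest in both directions, at 5.53 and 6.05.

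In some of these genes the order of the libraries recurred from genotype to genotype. The same replicate number gave the highest library in all 3 genotypes in 4 of the 10 genes, against 13.2% of all genes tested. These were Per1, Nr1d1 and Nr1d2, highest in replicate 2, and Per3, highest in replicate 1. The labels do not say what the number marks. According to the methods, each nest gave a matched trio of the genotypes and the pools were paired across genotypes, but neither the methods nor the labels say that a shared replicate number marks a pair. In an edgeR fit of genotype and replicate number, chosen after the data were seen, 3 of the 10 genes (Per1, Nr1d2 and Per3) had an unadjusted p under 0.05 for the number, against 7.16% of all genes, and 0 of the 10 passed an adjusted p of 0.05, which 0.108% of all genes passed. Without Dot1l(fl/fl) replicate 2 the 3 became 1, Per1, against 6.04% of all genes.

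Genes that follow activity, stress hormone or temperature were set beside this pattern, and their part in it was not tested. The summed level of the 15 immediate early genes, which neurons switch on within minutes of activity, was 451, 415 and 414 CPM in the Dot1l(+/+) pools, 440, 560 and 321 in those of Dot1l(fl/+) and 446, 435 and 363 in those of Dot1l(fl/fl). Its highest and lowest libraries, Dot1l(fl/+) replicates 2 and 3, were also the highest and lowest Dot1l(fl/+) libraries for Per1, whereas in Dot1l(+/+) and in Dot1l(fl/fl) Per1 was highest in replicate 2 and the summed level in replicate 1. Egr1, an early growth response factor, measured 57.4, 62.5 and 54.1 CPM in the Dot1l(+/+) pools, 63.0, 89.5 and 36.6 in those of Dot1l(fl/+) and 59.9, 63.6 and 45.9 in those of Dot1l(fl/fl). Jun, a subunit of the AP-1 transcription factor, measured 127.6, 100.6 and 104.8 CPM in the Dot1l(+/+) pools, 107.4, 100.1 and 99.1 in those of Dot1l(fl/+) and 106.9, 104.7 and 103.4 in those of Dot1l(fl/fl). The order thus differed within the list. Of the 15 genes, 2 were highest in replicate 2 of each genotype (Egr1 and Egr4) and 2 in replicate 1 of each (Jun and Npas4), against 5.55% and 4.27% of all genes; Egr4 and Npas4 were named after their values were seen.

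The summed level of the 11 glucocorticoid-responsive genes was 467, 486 and 458 CPM in the Dot1l(+/+) pools, 449, 543 and 442 in those of Dot1l(fl/+) and 466, 526 and 471 in those of Dot1l(fl/fl), and was also highest in replicate 2 of each genotype. Among them Sgk1, a kinase induced by glucocorticoids, measured 57.0, 77.8 and 49.8 CPM in the Dot1l(+/+) pools, 53.4, 91.4 and 49.5 in those of Dot1l(fl/+) and 55.7, 77.9 and 69.0 in those of Dot1l(fl/fl). In Dot1l(+/+), replicate 2 exceeded replicate 1 by more in Sgk1 alone than in the summed level of the 11 genes. Of the 11 genes, 4 were highest in replicate 2 of each genotype (Sgk1, Cdkn1a, Klf9 and Mt2), 2 in replicate 1 of each (Fkbp5 and Plin4), against 5.55% and 4.27% of all genes, and the other 5 in no single number. Cdkn1a, Fkbp5 and Plin4 were named after their values were seen. The 9 temperature-responsive genes summed to between 1094 and 1163 CPM in all 9 libraries, with replicates 1, 3 and 1 highest in Dot1l(+/+), Dot1l(fl/+) and Dot1l(fl/fl). Of the 9, 2 were highest in replicate 1 of each genotype (against 4.27% of all genes) and 0 in replicate 2 of each. These were the heat shock genes Hspa1a and Dnajb1, named after their values were seen, at 10.4, 12.6 and 6.20 CPM and at 65.6, 70.5 and 59.9 CPM in the replicate 1 libraries of Dot1l(+/+), Dot1l(fl/+) and Dot1l(fl/fl).

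**Figure D5:**
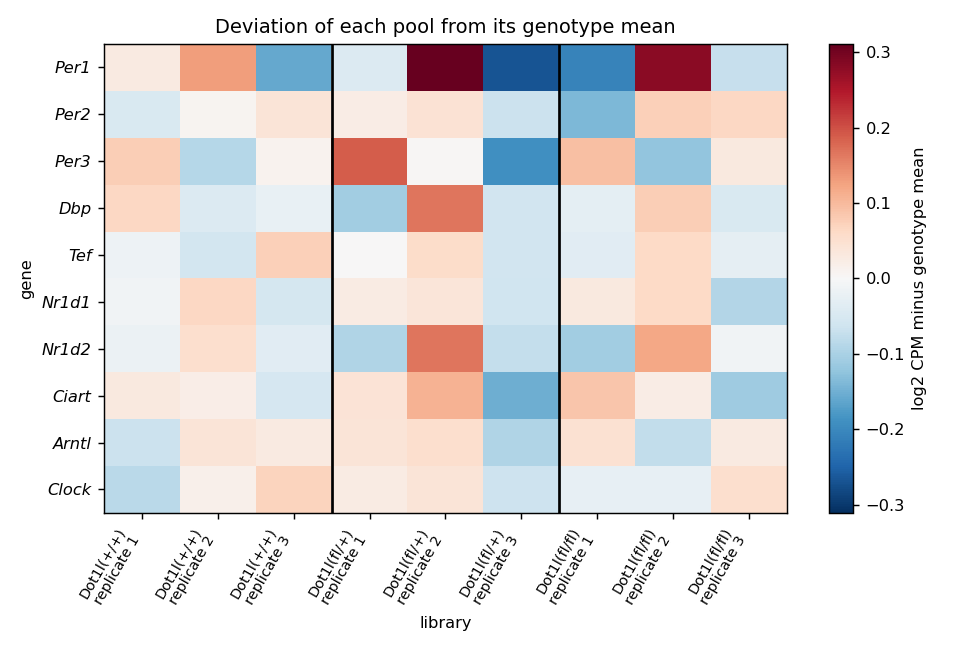
Log2 CPM of each clock gene (rows) in each library (columns, 3 per genotype) minus its genotype mean, in red where higher and in blue where lower. The Per1 and Nr1d2 rows are red in replicate 2 of every genotype, and Dot1l(fl/+) replicate 3 is blue in all 10 genes.

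Between genotypes, 0 of the 15 immediate early genes passed an edgeR unadjusted p of 0.05 between Dot1l(fl/+) and Dot1l(+/+), where 8.39% of all genes did. Of the 15, 1 was higher between Dot1l(fl/fl) and Dot1l(+/+), as were 2.21% of all genes. Between Dot1l(fl/fl) and Dot1l(fl/+) 1 was higher, as were 3.6% of all genes. Of the 11 glucocorticoid-responsive genes, 1 was higher and 1 lower in the first comparison (4.3% and 4.09% of all genes). Of these 11 genes, 1 was higher in the second comparison (2.21% of all genes) and 0 passed in the third (6.48%). The gene with the lowest p among them was Mt2, a metallothionein, with a log2 fold change of 0.45 between Dot1l(fl/fl) and Dot1l(+/+) (SE 0.14, edgeR unadjusted p 0.00756, adjusted p 0.999). Of the 9 temperature-responsive genes, 0 passed in the first and in the second comparison, where 8.39% and 3.93% of all genes did. In the third 1 was higher, as were 3.6% of all genes. None of the genes of these lists passed an adjusted p of 0.05 in edgeR.

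The loop has further parts, and 21 other clock genes were described by the same measures. All 21 were kept by the filter, and 0 passed an unadjusted p of 0.05 in any of the 3 comparisons (lowest edgeR adjusted p 0.661), which 8.39%, 3.93% and 6.48% of all genes did. Their median log2 fold changes were -0.0016, -0.0039 and 0.016. The genotypes did not overlap in 3 of the 21 between Dot1l(fl/+) and Dot1l(+/+) (Csnk1e and Usp2 lower, Fbxw11 higher), in 2 between Dot1l(fl/fl) and Dot1l(+/+) (Rorb and Csnk1e lower) and in 3 between Dot1l(fl/fl) and Dot1l(fl/+) (Cry1 and Hlf lower, Timeless higher), against 13.3%, 10.3% and 11.1% of all genes. Cry1, the cryptochrome that joins the period proteins in repression, measured 19.7, 21.4 and 24.4 CPM in the Dot1l(+/+) pools, 22.0, 21.2 and 22.2 in those of Dot1l(fl/+) and 20.2, 19.5 and 18.7 in those of Dot1l(fl/fl). Its Dot1l(fl/fl) libraries all lay below the Dot1l(fl/+) ones (log2 fold change -0.16, SE 0.089, edgeR unadjusted p 0.0937, adjusted p 0.778), a separation seen in this direction in 5.14% of all genes.

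Hlf, the remaining PAR bZIP factor, averaged 182.3 CPM ± 15.8 (SD, n = 3) in Dot1l(+/+) pools, 182.2 ± 0.631 in those of Dot1l(fl/+) and 171.7 ± 6.10 in those of Dot1l(fl/fl), and had a log2 fold change of -0.087 (SE 0.059) between Dot1l(fl/fl) and Dot1l(+/+) and of -0.085 (SE 0.059) between Dot1l(fl/fl) and Dot1l(fl/+). Nfil3, the repressor that competes for the D-box, averaged 9.67 ± 0.603, 10.1 ± 0.367 and 10.5 ± 1.19 CPM. Npas2, the stand-in for CLOCK, averaged 14.4 ± 1.25, 14.5 ± 0.618 and 14.9 ± 2.93 CPM, and Bhlhe41, which competes for E-boxes, averaged 48.3 ± 5.25, 50.4 ± 0.0717 and 50.3 ± 3.14 CPM. In none of the 3 genes did a log2 fold change exceed 1.2 times its SE.

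Marker genes of other cells and regions differed between the libraries. Of the 8 dopamine neuron markers, 7 were lower between Dot1l(fl/fl) and Dot1l(+/+) at an unadjusted p of 0.05 (1.72% of all genes were), and their summed level ran from 616 to 678 CPM in the controls, 478 to 623 with a single floxed allele and 464 to 495 in Dot1l(fl/fl). The summed level of the 6 hypothalamic markers was 125, 2.86 and 58.0 CPM in replicates 1, 2 and 3 of Dot1l(fl/+), and lay between 1.67 and 9.50 in Dot1l(+/+) and between 2.29 and 3.88 in Dot1l(fl/fl). Most of it was Pmch, the precursor of melanin-concentrating hormone, at a mean of 49.9 CPM ± 49.4 (SD, n = 3) in Dot1l(fl/+). The 4 choroid plexus markers summed to 53.6 to 136 CPM in Dot1l(+/+) pools, 95.7, 159 and 550 in those of Dot1l(fl/+) and 27.8 to 35.4 in those of Dot1l(fl/fl).

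Of the 6 markers of the suprachiasmatic nucleus, Six6, Prok2 and Nms were at 0 to 6 counts in every library and were not kept by the filter. Vip, a neuropeptide of the nucleus, and Lhx1, a homeobox factor, were kept and present in every library, at 3.82 to 10.3 and 9.21 to 11.9 CPM. The summed level of the 6 was 49.8 to 52.4 CPM in Dot1l(+/+) pools, 57.6 to 76.5 in those of Dot1l(fl/+) (highest in replicate 3) and 49.2 to 64.3 in those of Dot1l(fl/fl), of which Rgs16, a regulator of G protein signalling that other brain regions also express, made the largest share. Rgs16 was higher in Dot1l(fl/+) than in Dot1l(+/+), with a log2 fold change of 0.52 (SE 0.16, edgeR unadjusted p 0.00523, adjusted p 0.541). The 5 astrocyte, 6 oligodendrocyte, 5 microglia and 4 endothelial markers overlapped between genotypes in their summed levels, with 2 exceptions. The microglial sum was 203 to 215 CPM in Dot1l(+/+) and 227 to 243 in Dot1l(fl/fl), and the endothelial sum was 185 to 194 CPM in Dot1l(fl/+) and 179 to 183 in Dot1l(fl/fl). The part of these cell types in the clock gene values was not tested.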

How the data were processed

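RNA of 9 pools of dissected midbrain, 3 per genotype, was sequenced by the authors on an Illumina NextSeq after a directional library kit. The authors deposited raw counts per Ensembl gene. Their processing notes name bcl2fastq 2.17, Trimmomatic 0.30, DESeq2 1.10.1 and GRCm38.p4, and the aligner, the counter and its strand setting are not given in the sources used here. The authors' 3 comparison tables (DESeq2 mean level, log2 fold change, SE and p) were not used.

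Identifiers were named with GENCODE M21 (GRCm38), which gave a symbol to 47224 of 47729 and 99.9% of the counts. Exon lengths are unions of the exons of that release. Genes that passed filterByExpr were tested with the quasi-likelihood test of edgeR 4.0.16 (limma 3.58.1, R 4.3.3), in a model of genotype over the 9 libraries together, TMM scaling and Benjamini-Hochberg adjustment over 17671 genes. Log2 CPM used a prior count of 2. The common biological coefficient of variation was 8.81%, and the chi-square per degree of freedom between replicates was 4.35 to 16.3 (9 pairs), so that no library was a copy of another. The procedure was checked on simulated counts with known fold changes.

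The alternatives were DESeq2 1.42.0 on 9 or 6 libraries, DESeq2 size factors, no filter, edgeR on 6 libraries, the replicate number as a block and each library left out. The phase difference was repeated with a prior count of 0.5, with Arntl alone and without Per1 and Per2. The members and gene lists were chosen with earlier results of these data known. The rule for naming covered the 10 members, Dot1l, the other clock genes (values for those with an unadjusted p under 0.05 and for Cry1, Npas2, Nfil3, Hlf and Bhlhe41), up to 3 genes of highest level and any with an unadjusted p under 0.01 in each other list, and the 5 genes nearest to Dbp. Not every gene it covers is named. Six6, Prok2, Nms, Egr4, Npas4, Cdkn1a, Fkbp5, Plin4, Hspa1a and Dnajb1 were named in addition, after their values were seen. Figures were drawn with Python 3.11.15 and matplotlib 3.10.9.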

Additional observations from a re-analysis of the deposited data

How the results depend on the processing

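None of the 10 clock genes passed an adjusted p of 0.05 in any of 450 alternative values (10 genes, 3 comparisons, 15 settings). Among all genes tested, 0 passed it in each comparison of the main edgeR fit, and 0, 3 and 3 with the replicate number as a block. A count of 0 for the clock genes therefore says little about them in these fits. For the other settings the share of all genes that passed, adjusted or unadjusted, is not given here. Outside the settings that left out a library, 1 value turned its sign, that of Nr1d2 between Dot1l(fl/+) and Dot1l(+/+), which became 0.0039 with no filter. The count of members at an unadjusted p of 0.05 went from 0 to 1 between Dot1l(fl/fl) and Dot1l(fl/+) with no filter (Per1, edgeR unadjusted p 0.0222) and with the replicate number as a block (Per1, 0.18, edgeR unadjusted p 0.0445), and lay between 0 and 1 in each of the 3 comparisons with a library left out (Per1, Per2 or Clock). The causes were not tested. With a library left out, the log2 fold changes that crossed 0 ranged, between Dot1l(fl/+) and Dot1l(+/+), from -0.090 to 0.047 for Nr1d2, -0.086 to 0.10 for Per3, -0.060 to 0.0042 for Nr1d1, -0.050 to 0.020 for Tef, -0.046 to 0.083 for Ciart, -0.055 to 0.088 for Dbp and -0.046 to 0.0099 for Per2. Between Dot1l(fl/fl) and Dot1l(+/+) they ranged from -0.041 to 0.030 for Dbp, -0.031 to 0.043 for Nr1d1, -0.086 to 0.030 for Nr1d2 and -0.11 to 0.15 for Per1. Between Dot1l(fl/fl) and Dot1l(fl/+) they ranged from -0.090 to 0.053 for Dbp, -0.056 to 0.0088 for Tef, -0.090 to 0.065 for Nr1d2, -0.047 to 0.0047 for Clock, -0.049 to 0.14 for Per3, -0.036 to 0.045 for Arntl and -0.00084 to 0.073 for Nr1d1. The median log2 fold change of the 10 genes ran over all settings from -0.052 to 0.023, from -0.036 to 0.041 and from -0.042 to 0.053. The phase difference of Dot1l(fl/+) minus that of Dot1l(+/+) was -0.010 and ran from -0.081 (Arntl alone as night-to-dawn gene) to 0.035 (without Dot1l(+/+) replicate 1), that of Dot1l(fl/fl) minus Dot1l(+/+) was 0.050 and ran from -0.033 (Arntl alone) to 0.095 (without Dot1l(+/+) replicate 1), and that of Dot1l(fl/fl) minus Dot1l(fl/+) was 0.060 and ran from -0.0013 to 0.097 (without Dot1l(fl/fl) replicate 2 or 3). The pooled SD between pools was 0.085, so that none of the 3 kept its sign in every setting and the highest values passed 1 SD in 2 of them.

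Same-numbered libraries had deviations from their genotype means that correlated at 0.022 to 0.32 over genes, with the 3 values for number 3 under 0.1. Those for number 1 lay between 0.29 and 0.32 and those for number 2 between 0.11 and 0.18. The methods speak of paired pools without tying a pair to a number, so the main test did not use the numbers as pairs. Low values for number 3 do not show that its pools were unpaired, and the main test may leave out a real pairing. A hint in the data is that 7 of 9 libraries correlated best with a library of their own number. With the replicate block, 1651, 782 and 1259 genes had an unadjusted p under 0.05, against 1483, 694 and 1145 without it, and 0, 3 and 3 passed the adjusted threshold, against 0, 0 and 0. With 3 pools per genotype, these data cannot tell apart differences that lie within the same 95% interval.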

Other observations

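In the fit of genotype and replicate number, 19 genes passed the adjusted threshold for the number and none of them was one of the 10 clock genes. The test covers any difference among the 3 numbers, with 1 p per gene. For Per1 it gave an edgeR unadjusted p of 0.000536 (adjusted p 0.189), with number 2 at 0.32 and number 3 at -0.094 relative to number 1 on the log2 scale, and number 2 was the highest library in 3 of 3 genotypes. For Nr1d2 it gave an edgeR unadjusted p of 0.00974 (adjusted p 0.527), with values of 0.19 and 0.033. For Per3 it gave an edgeR unadjusted p of 0.0419 (adjusted p 0.686), with values of -0.19 and -0.17. The values were -0.0022 and -0.023 for Arntl and 0.038 and 0.047 for Clock. With each library left out in turn, 1 to 3 of the 10 members had an edgeR unadjusted p under 0.05, against 5.50% to 8.25% of all genes. The count was 1 (Per1) when Dot1l(fl/fl) replicate 2 was left out, where 6.04% of all genes passed. The p of Per1 lay between 0.000242 and 0.00794. Nr1d2 lay between 0.00778 and 0.0744, the highest without Dot1l(fl/+) replicate 2, and Per3 between 0.0141 and 0.277, the highest without Dot1l(fl/+) replicate 1. What the number marks was not tested.

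The genes whose profile over the 9 libraries was nearest to that of Dbp, by the root mean square difference of centred log2 CPM, were Actr6 (0.029), Tmem69 (0.029), Prpsap2 (0.030), Skp1a (0.034) and Atp1b3 (0.034), none of them a gene of the clock lists. The median over all genes tested was 0.15, and the SD of Dbp itself was 0.082, so that a gene with little change over the libraries also lies near it.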
